A study of Macaca mulatta with 49 samples.

Results

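CD8A, CD8B and BEND5 were described here in sorted central memory T cells (TCM) of rhesus macaques, because they separated CD8 TCM from CD4 TCM. They were chosen by that measured separation, so the CD8 against CD4 gap of these 3 genes is given as a description and was not tested. They are 3 of 20041 gene symbols on the array, and of its 47230 probes 8 carried one of these symbols, 3 for CD8A, 3 for CD8B and 2 for BEND5, and 7 of the 8 gave a signal above background often enough to be used (6 or more samples among the 24 CD8 or the 24 CD4 TCM). Changes after treatment, and differences between the antibody groups, were not part of that choice and were tested.

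CD8 TCM and CD4 TCM were sorted from the blood mononuclear cells of 12 animals, 6 given an antibody against interleukin-15 (anti-IL-15) and 6 given an IgG1 control antibody, and each animal gave both cell types before and after treatment. The labels give neither the strain, age and sex of the animals, nor the dose, nor the time between the samples, and a misspelt time label on control samples was read as post-treatment. RNA of each sorted sample was amplified and hybridised to Illumina BeadChips, whose probes were designed on human transcripts, so the absence of signal from a probe does not mean that the macaque gene is silent. The 8 groups of cell type, antibody and time held 6 samples each, 48 in all, and 1 CD8 sample was run on 2 arrays that were averaged.

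CD8A encodes the alpha chain of the CD8 coreceptor, which pairs with itself or with the beta chain encoded by CD8B, binds MHC class I on the presenting cell and brings the kinase LCK to the T cell receptor. The alpha chain homodimer also occurs outside the CD8 T cell lineage: macaque natural killer (NK) cells carry it, and some macaque memory CD4 T cells do. BEND5 encodes a protein with a BEN domain, a fold that binds DNA, and acts as a transcriptional repressor.

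Signals are given as log2 intensity after background correction and quantile normalization, and a gap is the log2 intensity in CD8 TCM minus that in CD4 TCM of the same animal at the same time. The number of probes detected, at a detection p under 0.05, ranged from 11444 to 13716 in CD8 samples and from 11988 to 14867 in CD4 samples. Sorted cell numbers ranged from 23000 to 116000 for CD8 TCM and from 197000 to 958000 for CD4 TCM, so cell type and sorted cell number cannot be told apart. In these bulk samples, fewer cells of a type and less RNA per cell cannot be told apart. The T cell genes CD3D, CD3G, CD2 and TRAT1 were detected in all 48 samples, whereas the CD3E probe was detected in 3 of 24 CD8 and 4 of 24 CD4 samples. The CD4 probe was detected in 0 of 24 CD8 samples and in 1 of 24 CD4 samples, so CD4 itself could not check the CD4 label. Of the central memory genes measured, the homing receptor gene CCR7, the IL-7 receptor gene IL7R and LEF1 were detected in all 48 samples. CD28 was detected in 13 of 24 CD8 and 22 of 24 CD4 samples, and CD27 in 1 of 24 CD8 and 0 of 24 CD4 samples. The 3 libraries least like the others of their cell type were both CD4 TCM samples of animal 3 and the later CD8 TCM sample of animal 4, each in the anti-IL-15 group, with median correlations of 0.956, 0.961 and 0.956.

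CD8A was far apart between the cell types. On its brightest probe, ILMN_1768482, CD8 TCM before treatment gave a lowest, median and highest log2 intensity of 12.37, 12.93 and 13.31 over 12 animals. CD4 TCM of the same animals gave 4.88, 5.67 and 7.17. Every CD8 sample lay above every CD4 sample, and even the lowest of them, at 12.37, was far above the highest CD4 sample, at 7.17. The gap before treatment was 7.16 ± 0.66 (SD, n = 12), a 143-fold difference. The other bright CD8A probe, ILMN_2353732, had a gap of 7.24 ± 0.57 (SD, n = 12). That probe was detected in 4 of the 12 CD4 samples before treatment, against 11 of 12 for ILMN_1768482. Its CD4 levels were thus mostly at background. The size of the CD8A gap depends on the background correction: in the deposited values, which lack it, the gap of ILMN_1768482 before treatment was 5.84.

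The remaining CD8A probe, ILMN_1760374, is assigned by the array annotation to another transcript than the bright pair, and had a gap of 3.29 ± 0.29 (SD, n = 12). Where no CD4 sample of a group detected a probe, the CD4 level is only a bound, and the fold was taken against the lowest signal among detected probes of those arrays or the probe's own value, whichever was higher. On this basis ILMN_1760374 was at least 8.28-fold higher in CD8 TCM before treatment. Over animals the gaps of the 3 CD8A probes followed each other, with r of 0.88 for the bright pair and of 0.70 and 0.73 for the remaining probe with each of them. These correlations describe probes that share the same arrays and RNA.

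CD8B was dim in CD8 TCM and below detection in CD4 TCM, so its gap is a lower bound and is not set against that of CD8A. Its brightest probe, ILMN_1748601, gave 4.87, 5.68 and 6.06 as the lowest, median and highest CD8 level before treatment, and 4.39, 4.53 and 4.74 in CD4 TCM. The groups did not overlap, but the lowest CD8 sample, at 4.87, was close to the highest CD4 sample, at 4.74. The CD8B probe was detected in 20 of 24 CD8 samples and in 0 of 24 CD4 samples over both times. Its measured gap before treatment was 1.05 ± 0.40 (SD, n = 12), which corresponds to at least 1.45-fold. The second CD8B probe, ILMN_2354191, had a gap of 1.01 ± 0.53 (SD, n = 12), at least 1.30-fold, and overlapped before treatment, since the lowest CD8 sample, at 4.58, lay below the highest CD4 sample, at 4.69. The third, ILMN_1669005, assigned to another CD8B transcript, was detected in none of the 48 samples, and its gap was -0.03 ± 0.14 (SD, n = 12). The levels of the CD8A and CD8B probes cannot be set against each other, since each probe binds its target with its own strength.

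Unlike the CD8B probes, the brightest BEND5 probe, ILMN_3237448, was detected in all 24 CD4 samples. This sets probes of unlike strength side by side and does not compare the genes. The lowest, median and highest CD8 levels before treatment were 7.85, 8.23 and 8.70, and the CD4 levels were 5.12, 5.76 and 6.56. No CD4 sample reached the CD8 range. The gap was 2.41 ± 0.49 (SD, n = 12), a 5.32-fold difference. The second probe, ILMN_1675024, was detected in 23 of 24 CD8 samples and in 0 of 24 CD4 samples, with a gap of 1.41 ± 0.44 (SD, n = 12), or at least 1.94-fold. Its gaps correlated with those of the first BEND5 probe over the 12 animals, with r of 0.72.

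**Figure D1:**
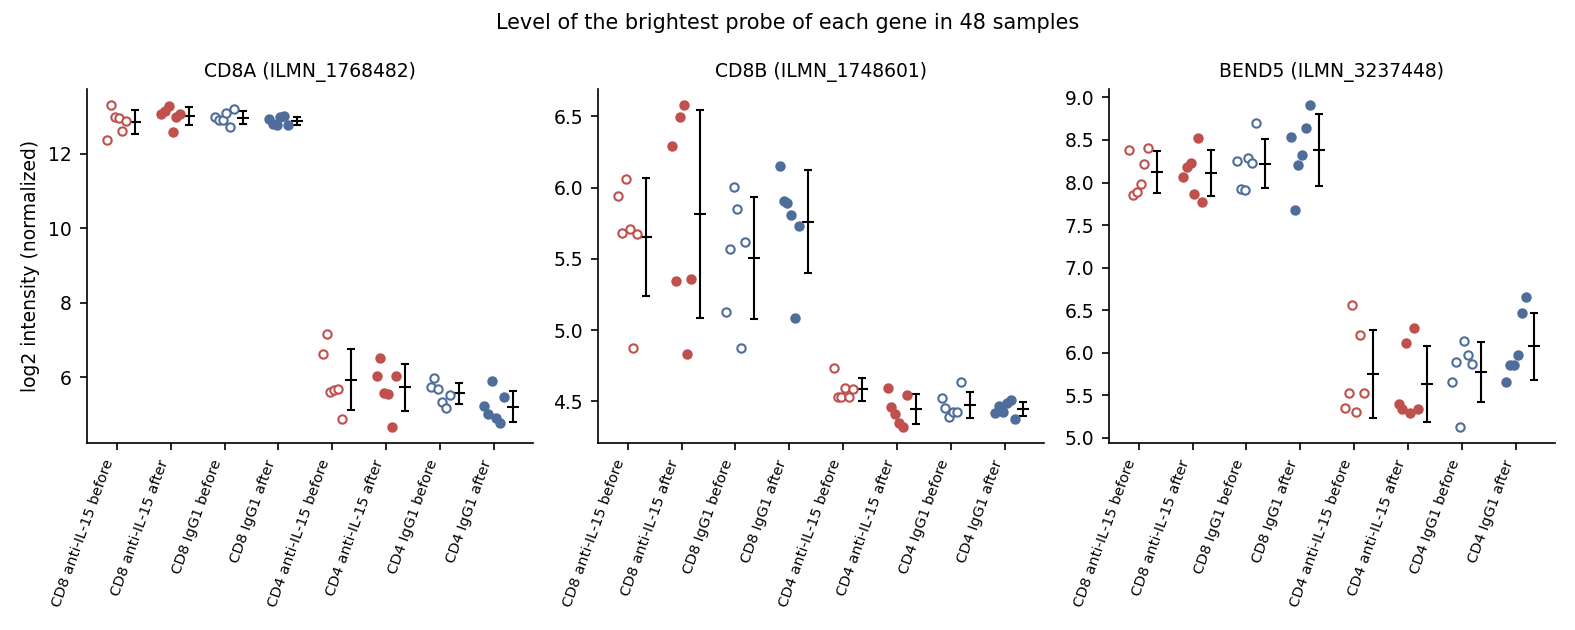
The plot of levels by sample shows normalized log2 intensity (y axis) of the brightest probe of each gene in the 8 groups (x axis), with a point for each animal and the mean and SD of 6 animals beside it. Open points are before and filled points after treatment; all 24 CD8 samples lie above all 24 CD4 samples in each panel, with the narrowest margin for CD8B.

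All 7 probes above background had a gap above 0 in 12 of 12 animals before treatment. Of the 16379 probes, 13.6% were called higher in CD8 TCM and 18.3% higher in CD4 TCM before treatment by limma at an adjusted p under 0.05. For 6 of the 7 probes (the exception was ILMN_2354191), all 12 CD8 samples lay above all 12 CD4 samples before treatment, as did 0.58% of the 16379 probes. After treatment the share was 0.598%. The members were chosen on this contrast, so these shares are given only as its scale.

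After treatment the levels were as follows. CD8A on ILMN_1768482 in CD8 TCM gave a lowest, median and highest level of 12.58, 13.08 and 13.28 after anti-IL-15 and of 12.77, 12.86 and 13.03 after IgG1. In CD4 TCM it gave 4.66, 5.80 and 6.53 after anti-IL-15, detected in 5 of 6 samples, and 4.77, 5.13 and 5.89 after IgG1, detected in 3 of 6. The antibody groups overlapped within each cell type, and the cell types stayed far apart. CD8B on ILMN_1748601 gave 4.83, 5.83 and 6.58 in CD8 TCM after anti-IL-15 and 5.08, 5.85 and 6.15 after IgG1, and none of the 12 CD4 samples detected it. BEND5 on ILMN_3237448 gave 7.77, 8.13 and 8.53 in CD8 TCM after anti-IL-15 and 7.68, 8.43 and 8.91 after IgG1. In CD4 TCM it gave 5.30, 5.37 and 6.29 after anti-IL-15 and 5.65, 5.92 and 6.65 after IgG1. For BEND5 too the antibody groups overlapped within each cell type and the cell types did not.

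The gaps after treatment had the same direction in both antibody groups. The CD8A gap on ILMN_1768482 was 7.30 ± 0.61 (SD, n = 6) after anti-IL-15 and 7.67 ± 0.51 (SD, n = 6) after IgG1. On ILMN_2353732 it was 7.26 ± 0.51 and 7.62 ± 0.19 (SD, n = 6 each), the latter a bound of at least 151-fold, since 0 of 6 CD4 samples after IgG1 detected this probe. On ILMN_1760374, which 1 of 6 CD4 samples detected in each group, it was 3.18 ± 0.42 and 3.70 ± 0.37 (SD, n = 6 each). Every animal's gap stayed far above 0 on the bright pair, the lowest being 6.63 in anti-IL-15 animal 2. For CD8B, ILMN_1748601 had a gap of 1.37 ± 0.72 after anti-IL-15 and 1.31 ± 0.39 after IgG1, and ILMN_2354191 had 1.39 ± 0.73 and 1.40 ± 0.30 (SD, n = 6 each). As bounds these were at least 1.71-fold and 1.65-fold on the first probe and at least 1.80-fold and 1.70-fold on the second. The wider spread in the anti-IL-15 group came with animals 3 and 4, at 2.08 and 2.23 on ILMN_1748601, and animal 5, at 0.51. For BEND5, ILMN_3237448 had a gap of 2.48 ± 0.28 and 2.30 ± 0.34, and ILMN_1675024 had 1.35 ± 0.36 and 1.30 ± 0.57 (SD, n = 6 each), or at least 1.83-fold and 1.97-fold. On ILMN_1675024 the samples overlapped after IgG1, where the CD8 sample of animal 2, at 4.93, lay below the highest CD4 sample, at 5.07. Without anti-IL-15 animals 3 and 4, which hold the 3 libraries least like the others, the gaps after anti-IL-15 were 7.26 for CD8A, 0.98 for CD8B and 2.55 for BEND5 on the brightest probes. Before treatment they were 7.12, 1.00 and 2.49 without those animals.

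The order of the 8 group means was the same in kind for the 3 genes, with the 4 CD8 groups first. For CD8A, neighbouring CD8 groups differed by at most 0.09, less than the SD of either neighbour with the larger spread, and the step to the first CD4 group was 6.92. For BEND5 that step was 2.03, and every other step was smaller than the larger SD of its neighbours. For CD8B the step was 0.92, and among its CD4 groups, none of them detected, anti-IL-15 before treatment stood 0.11 above IgG1 before treatment, with SDs of 0.08 and 0.09.

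Whether these genes changed after each antibody was tested in each cell type, with each animal compared with itself, and p-values were adjusted over all probes above background in that cell type. In CD8 TCM after anti-IL-15, 0 of 7 probes were called by limma, with 0.0339% of 14738 probes called and none of the 7 at an unadjusted p under 0.05. The CD8A changes after anti-IL-15 were 0.17 ± 0.14, 0.19 ± 0.13 and 0.07 ± 0.18 (SE) in the order of brightness, with a lowest adjusted p of 0.729 by limma. The levels on ILMN_1768482 ran from 12.37 to 13.31 before and from 12.58 to 13.28 after, and overlapped almost wholly. CD8B changed by 0.16 ± 0.17 and 0.38 ± 0.20 (SE), the second being higher in 5 of 6 animals. BEND5 differed by -0.01 ± 0.15 on ILMN_3237448, with a 95% confidence interval from -0.32 to 0.30, and was higher in 3 of 6 animals.

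After IgG1, 0 of 7 probes were called in CD8 TCM by limma, where 0% of 14738 probes were called. An unadjusted p under 0.05 was found for 1 of the 7, beside 7.14% of all 14738 probes. That probe was ILMN_2354191 of CD8B, at 0.46 ± 0.20 (SE) with limma's adjusted p of 0.685, higher in 4 of 6 animals. CD8A on ILMN_1768482 was at -0.09 ± 0.14 (SE) and was higher in 1 of 6 animals, whereas ILMN_1760374 was at 0.35 ± 0.18 (SE) and was higher in 4 of 6. The change after anti-IL-15 minus that after IgG1 was 0.27 (95% confidence interval -0.16 to 0.69) for the former, 0.31 (-0.08 to 0.71) on ILMN_2353732 and -0.28 (-0.83 to 0.27) on ILMN_1760374, so the CD8A probes differed in sign. It was -0.09 (-0.61 to 0.42) for CD8B on ILMN_1748601 and -0.17 (-0.61 to 0.26) for BEND5 on ILMN_3237448. For this difference 0 of 7 probes were called by limma, 0% of 14738 probes were, and 0 of the 7 had an unadjusted p under 0.05.

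In CD4 TCM 3 member probes were above background often enough to be tested, the bright CD8A pair and ILMN_3237448 of BEND5. After anti-IL-15, 0 of 3 were called by limma, beside 0.0194% of 15490 probes, and after IgG1 0 of 3 were, beside 0%. No unadjusted p of the 3 was under 0.05 in either. CD8A on ILMN_1768482 was at -0.20 ± 0.21 (SE) after anti-IL-15 and -0.36 ± 0.21 (SE) after IgG1, lower in 5 of 6 animals each time. In the IgG1 group this probe was detected in 6 of 6 CD4 samples before and 3 of 6 after treatment. The size of that change thus rests partly on values at background. BEND5 was at -0.12 ± 0.15 and 0.30 ± 0.15 (SE), and the difference between the antibodies was -0.42 (95% confidence interval -0.85 to 0.01), with limma's adjusted p of 1.000. For that difference 0 of 3 probes were called by limma, as were 0% of 15490 probes, with 0 of the 3 at an unadjusted p under 0.05.

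The change of the gap itself was tested over 16379 probes. No member was called by limma after anti-IL-15 or after IgG1, where 0% of probes were called each time, and none of the 7 had an unadjusted p under 0.05. The CD8A gap on ILMN_1768482 moved by 0.38 (95% confidence interval -0.17 to 0.92) after anti-IL-15 and by 0.26 (-0.28 to 0.81) after IgG1, widening in 4 of 6 animals in each group. The CD8B gap on ILMN_1748601 moved by 0.30 (-0.14 to 0.74) and 0.28 (-0.16 to 0.73), and the BEND5 gap on ILMN_3237448 by 0.10 (-0.31 to 0.52) and -0.14 (-0.56 to 0.27). Between the antibodies the CD8A gap changes differed by 0.11 (-0.66 to 0.88) on ILMN_1768482, 0.30 (-0.36 to 0.96) on ILMN_2353732 and -0.29 (-0.95 to 0.36) on ILMN_1760374, which again differed in sign. On the brightest probes of the other genes they differed by 0.02 (-0.61 to 0.64) for CD8B and 0.25 (-0.34 to 0.83) for BEND5, with 0 of 7 called by limma, 0% of all probes called and 0 at an unadjusted p under 0.05. These intervals leave room for changes of the gap that are small beside the CD8A gap but close in size to the measured CD8B gap.

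**Figure D2:**
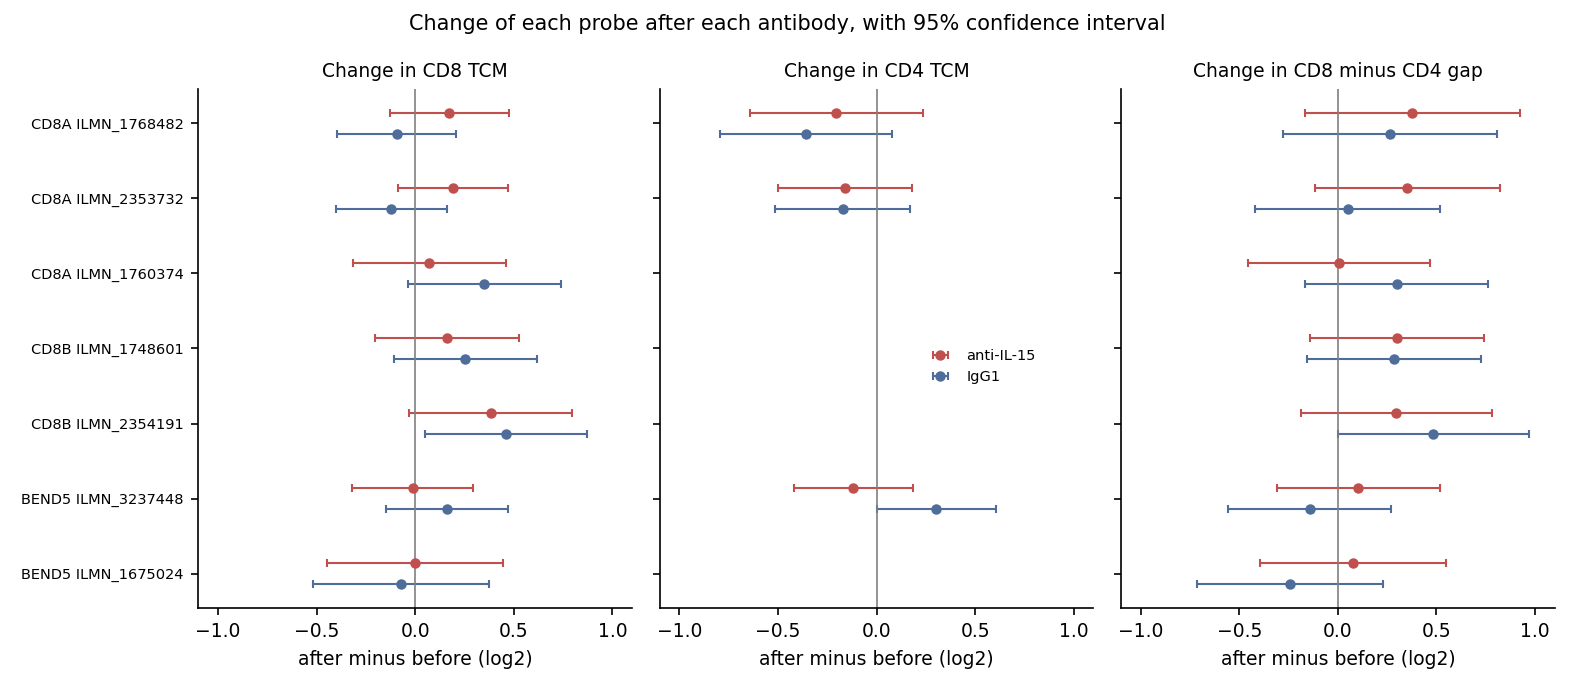
The plot of changes by probe shows the after minus before difference in log2 intensity (x axis) for each probe above background (y axis) in CD8 TCM, in CD4 TCM and in the gap, with 95% confidence intervals and 6 animals per antibody. In CD4 TCM only 3 probes were tested; the interval of CD8B probe ILMN_2354191 in CD8 TCM after IgG1 is the only one that leaves out 0, before adjustment.

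The antibody groups were also compared before treatment. In CD8 TCM 0 of 7 probes were called by limma, beside 0% of 14738 probes, with 0 at an unadjusted p under 0.05. In CD4 TCM 0 of 3 were called, beside 0.00646% of 15490 probes, again with 0 at an unadjusted p under 0.05. For the gap 0 of 7 were called, beside 0% of 16379 probes. An unadjusted p under 0.05 was found for 1 of the 7, beside 4.45% of all probes. That was CD8A on ILMN_2353732, whose gap was 6.90 ± 0.61 (SD, n = 6) in the anti-IL-15 group and 7.57 ± 0.28 (SD, n = 6) in the IgG1 group, a difference of -0.67 (95% confidence interval -1.18 to -0.15) with limma's adjusted p of 0.999. The lower gap sat with 2 animals, anti-IL-15 animals 1 and 2, at 6.07 and 6.25, while the other 4 of that group ran from 6.93 to 7.41. All 6 IgG1 animals lay between 7.15 and 7.89.

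**Figure D3:**
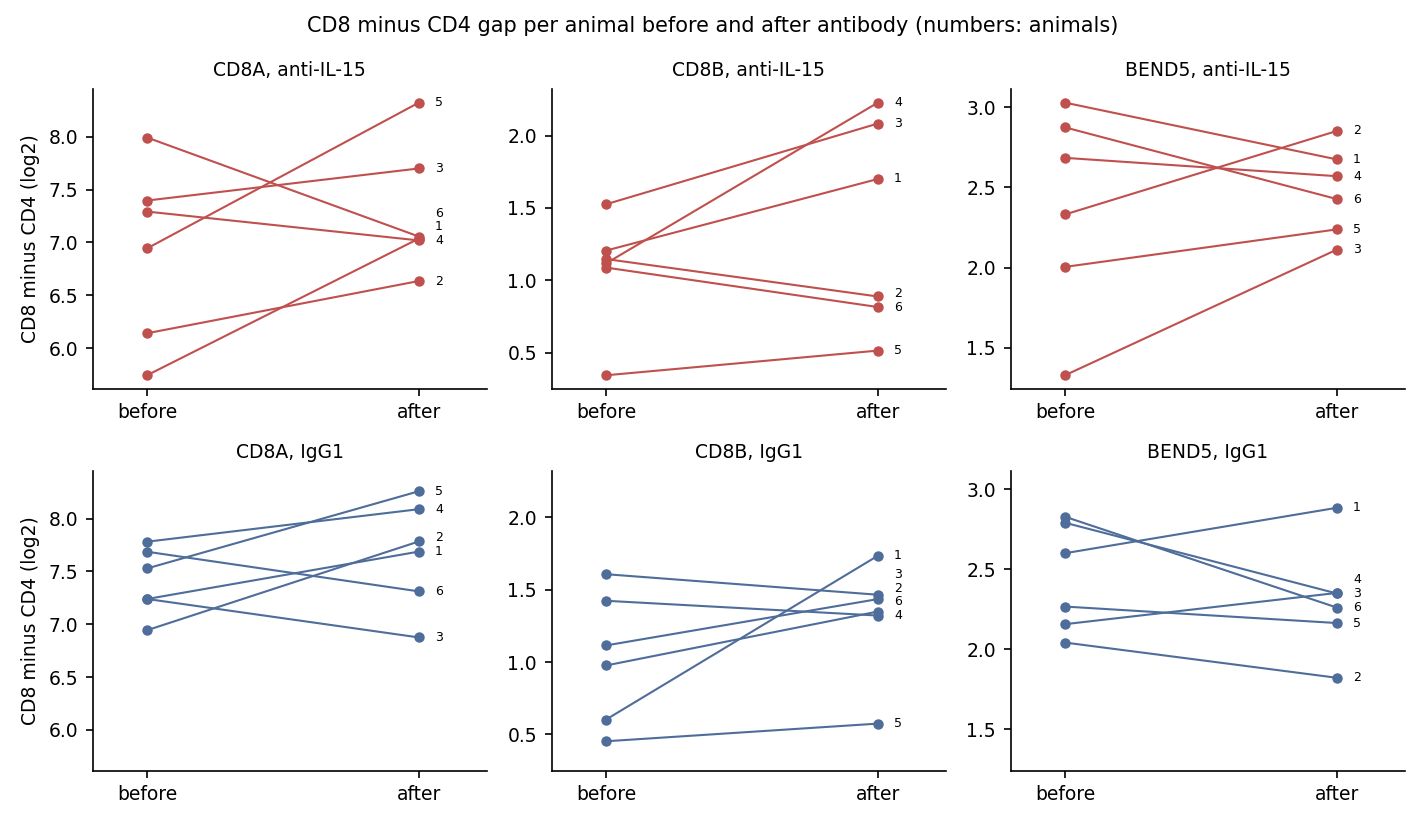
The plot of the gap by animal shows the CD8 minus CD4 difference (y axis, log2) before and after treatment (x axis), with a line per animal, numbered at its right end, for the brightest probe of each gene. The lines cross: anti-IL-15 animal 1 has the lowest CD8A gap before treatment, at 5.74, and 7.04 after it, while animal 6 goes from 7.99 to 7.06.

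Constancy over animals was measured by correlating each animal's gap before and after treatment, in a family of 7 probes with two-sided permutation tests. For the brightest probes, Pearson's r over 12 animals was 0.35 for CD8A (permutation p = 0.273, adjusted p = 0.382), 0.54 for CD8B (p = 0.0700, adjusted p = 0.321) and 0.51 for BEND5 (p = 0.0917, adjusted p = 0.321). Spearman's rho was 0.24, 0.51 and 0.58. Leaving out the 2 animals farthest from the median gap gave r of -0.24 for CD8A, 0.07 for CD8B and 0.38 for BEND5, so these CD8A and CD8B values rest on those animals. The second probe of each gene did not share this: r went from 0.38 to 0.58 for CD8A on ILMN_2353732 and from 0.40 to 0.41 for CD8B on ILMN_2354191. Over these and the remaining pair of probes r ran from 0.02 to 0.40, and no adjusted p of the 7 was under 0.05. Within the anti-IL-15 group r was 0.26 for CD8A, 0.70 for CD8B and 0.67 for BEND5 on the brightest probes, and within the IgG1 group 0.25, 0.39 and 0.51, with 6 animals each and exact permutation p from 0.0611 to 0.635. The other probes ran from -0.63 to 0.73 within the anti-IL-15 group, the lowest being CD8A on ILMN_1760374 with a rho of -0.94, and from -0.10 to 0.17 within the IgG1 group. The direction of the gap recurred in every animal at both times for these 7 probes, which were chosen on this contrast in the same animals. All 7 were above background often enough in CD8 TCM and 3 in CD4 TCM, so this direction was partly fixed in advance. The probe left out, ILMN_1669005, had a gap above 0 in 8 of 12 animals before treatment. The place of an animal within the spread did not pass the test for any of the 7.

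The spread over animals can be set against the spread between arrays for the CD8 sample run on 2 arrays. The arrays differed by 0.05, 0.03 and 0.08 on the CD8A probes, where the SD of CD8 TCM over animals was 0.26, 0.18 and 0.27. On CD8B probes ILMN_1748601 and ILMN_2354191 they differed by 0.36 and 0.13, where the SD over animals was 0.41 and 0.53. On the BEND5 probes they differed by 0.03 and 0.29, where the SD was 0.26 and 0.37. For ILMN_1748601 and ILMN_1675024, both near background, the difference between the arrays was thus a little below the SD over animals. A difference between 2 arrays and an SD are unlike measures. The repeat is 1 pair and gives no estimate of error of its own.

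No shared spread over animals was found among the 3 genes with 12 animals. The CD8B probe used differed by 0.36 between the 2 arrays of the repeated sample, beside an SD over animals of 0.41. Its pairs thus say little about a shared spread. The gaps before treatment of CD8A and CD8B correlated with r of -0.02, those of CD8A and BEND5 with -0.12, and those of CD8B and BEND5 with -0.02 over 12 animals. Spearman's rho was -0.06, 0.06 and 0.07, and leaving out the 2 animals farthest from the median moved r to 0.24, 0.34 and -0.36. The 3 permutation tests had an adjusted p of 0.964 each.

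CD8A in CD4 TCM had a wider spread than in CD8 TCM on ILMN_1768482, with an SD over the 24 samples of 0.60 against 0.22. The CD4 signal was near background, at a mean of 5.61 beside 12.93 in CD8 TCM, so these SDs are unlike measures. On ILMN_1760374, detected in 2 of 24 CD4 samples, the SDs went the other way, at 0.21 in CD4 and 0.37 in CD8 TCM. ILMN_1768482 was detected in 19 of 24 CD4 samples, and ILMN_2353732 in 7 of 24. The 4 highest CD4 samples on ILMN_1768482 were those of anti-IL-15 animals 1 and 2, at 6.62 and 7.17 before treatment and 6.04 and 6.53 after it, against a median of 5.59 over the 24. On ILMN_2353732 the samples before treatment of the same animals, at 5.83 and 6.16, ranked 3rd and 1st, and animal 1 after treatment was at 4.83, close to the median of 4.85. CD8B was detected in none of the 24 CD4 samples, those of animals 1 and 2 included, on any of its probes. It was dim even in CD8 TCM, with a mean of 5.69 on ILMN_1748601, so a small rise in CD4 TCM could not be seen. BEND5 on ILMN_3237448 lay between 5.33 and 5.52 in the 4 samples of these animals, below the CD4 median of 5.86. Its gap over both times was 2.40, against 7.32 for CD8A on ILMN_1768482, so it too could not show a small part of CD8 TCM RNA. Whether such RNA was present was not tested. Of the 10 measured genes listed as other CD8 T cell genes, 2 had all 4 of these samples above the CD4 median, GZMH and GZMA, both granzyme genes. GZMH was at 5.25 and 6.02 in animals 1 and 2 before treatment, against a median of 4.74, and GZMA at 5.32 and 5.64, against 5.07. The other 8 genes had at least 1 of the 4 samples at or below the median. CTSW, a protease gene of cytotoxic cells, was detected in 1 of 24 CD4 samples, which was the sample of anti-IL-15 animal 3 after treatment, at 6.47. These samples were picked for their CD8A level, and the ranks are given as a description.

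**Figure D4:**
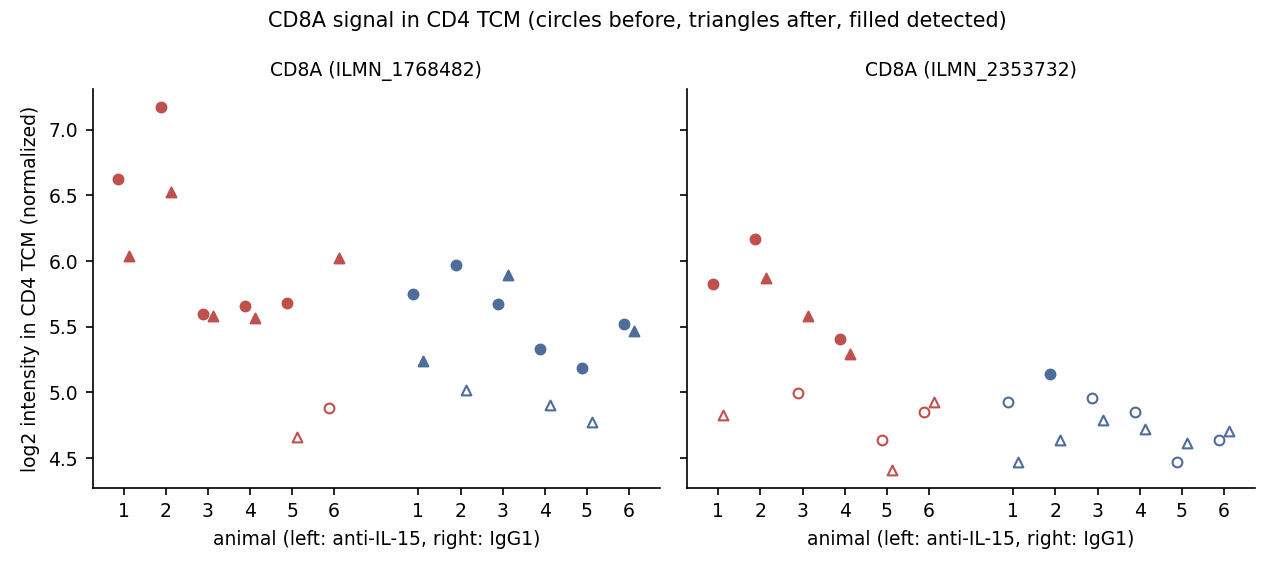
The plot of CD8A in CD4 TCM shows the normalized log2 intensity (y axis) of the bright CD8A pair in each animal's CD4 samples (x axis), with circles before and triangles after treatment, filled where detected. Anti-IL-15 animals 1 and 2 hold the 4 highest values of ILMN_1768482, from 6.04 to 7.17.

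Markers of other cells were summed as normalized intensity for each list. The NK list, with 9 genes, ran from 440.9 to 1203 in CD8 samples and from 425.2 to 724.8 in CD4 samples, with 5 of its genes detected in 6 or more CD8 samples and 2 in 6 or more CD4 samples. FCGR3A, an Fc receptor gene, was detected in 24 of 24 samples of both types and TYROBP, an adaptor gene, in 18 CD8 and 11 CD4 samples, while the receptor gene NCR1 was detected in none of the 48. The monocyte and dendritic list, also 9 genes, ran from 1591 to 7339 in CD8 and from 1267 to 2824 in CD4 samples, with 8 and 4 genes detected in 6 or more samples. CD14 and CD68 were detected in all 48 samples, with a mean CD14 level of 7.50 in CD8 and 6.41 in CD4 samples, and S100A8 was detected in none. The B cell list, with 5 of 6 genes on the array, ran from 318.0 to 720.1 in CD8 and from 162.1 to 291.8 in CD4 samples, with 4 genes detected in 6 or more samples of each type. CD79B had a mean level of 8.10 in CD8 and 5.87 in CD4 samples and CD79A of 6.05 and 5.41, and BLK was detected in none. The erythroid list, with 4 genes, ran from 236.8 to 27541 in CD8 and from 492.6 to 23643 in CD4 samples. The lists of platelet and of gamma delta or innate-like T cell genes ran from 89.1 to 145 and from 48.3 to 208 in CD8 samples, and from 90.2 to 134 and from 45.1 to 89.3 in CD4 samples. The part of these cells in the gaps was not tested.

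The genes around the coreceptor were read from lists on the same CD8 minus CD4 contrast before treatment, with the brightest probe of each gene. The lists were chosen with earlier results of these data known. Their counts and p-values, here and below, are thus a description and not independent support. Of 8 measured genes of MHC class I and antigen presentation, the ligand side of the coreceptor, 0 were called higher in CD8 TCM and 1 was higher in CD4 TCM, with a list median of 0.06 beside 0.02 over all 16379 probes. That gene was TAP2, a subunit of the peptide transporter, at -0.38 ± 0.12 (SE, limma adjusted p = 0.0169). It was detected in 5 of 12 CD8 and 10 of 12 CD4 samples. B2M, the light chain of MHC class I, had a difference of -0.01 ± 0.09 (SE). Of 14 genes of the T cell receptor complex and its first signalling steps, 3 were higher in CD8 TCM and 4 in CD4 TCM, with a median of -0.04. Among the 4 was PTPRC, whose probe was detected in 0 of 12 CD8 and 4 of 12 CD4 samples. Its difference thus lies at background. ZAP70, the kinase recruited to the receptor, was higher in CD8 TCM by 0.59 ± 0.11, and CSK, which restrains LCK, by 0.53 ± 0.12 (SE, limma adjusted p = 0.000290 and 0.00124). LCK, the kinase that the coreceptor carries, was higher by 0.23 ± 0.08 (SE, limma adjusted p = 0.0307). FYN, a related kinase, was at -0.43 ± 0.09 and the adhesion receptor CD2 at -0.34 ± 0.08, both lower in CD8 TCM in 12 of 12 animals (SE, limma adjusted p = 0.000722 and 0.00362).

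Of 9 measured regulators of the CD8 lineage, 2 were higher in CD8 TCM and 3 in CD4 TCM, with a median of -0.01. EOMES, a T-box factor of memory and effector CD8 T cells, was higher by 2.51 ± 0.15 and RUNX3, which acts on the Cd8 and Cd4 genes during lineage choice in mice, by 0.63 ± 0.10, each in 12 of 12 animals (SE, limma adjusted p = 6.69e-11 and 7.41e-05). The count of 3 fell to 1 without anti-IL-15 animal 5 or without IgG1 animal 4. LEF1, a factor of early T cells and memory, was at -0.55 ± 0.12 and RUNX1 at -0.43 ± 0.14 (SE, limma adjusted p = 0.000976 and 0.0258). Of 10 measured genes listed as other CD8 T cell genes, 9 were higher in CD8 TCM and 0 in CD4 TCM, with a median of 2.33. They were led by CTSW at 3.79 ± 0.10, GZMM at 3.45 ± 0.13 and GZMK at 3.24 ± 0.18, the last pair encoding granzymes, each in 12 of 12 animals (SE, limma adjusted p = 3.54e-17, 8.67e-14 and 3.29e-11). CTSW and NKG7 were detected in 0 of 12 CD4 samples before treatment, so their CD4 levels are only bounds. CCL5, a chemokine gene, was the exception and was not called, at 0.23 ± 0.11 (SE, limma adjusted p = 0.118).

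Of 11 measured genes of the CD4 helper lineage, 0 were higher in CD8 TCM and 4 in CD4 TCM, with a median of -0.16. TOX2 and MAF, factors of follicular and other helper cells, were at -2.04 ± 0.12 and -1.91 ± 0.10, and the inhibitory receptor CTLA4 at -0.90 ± 0.10, each lower in CD8 TCM in 12 of 12 animals (SE, limma adjusted p = 6.69e-11, 2.96e-11 and 1.51e-06). CTLA4 was detected in 2 of 12 CD8 samples, so its CD8 level was mostly at background. ZBTB7B, the factor that directs the CD4 lineage in mice, was at 0.19 ± 0.13 (SE, limma adjusted p = 0.278). Of 4 measured BEN domain genes other than BEND5, 1 was higher in CD8 TCM, NACC2 at 0.46 ± 0.16 (SE, limma adjusted p = 0.0360), and BEND3, BEND4 and NACC1 lay between -0.14 and 0.09. The NACC2 call was lost when any of 7 single animals was left out, which gave a count of 0. The lists were read beside the backgrounds of 13.6% and 18.3% of probes called. Since earlier results of these data were known when the lists were chosen, list counts beside those shares are a description only.

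**Figure D5:**
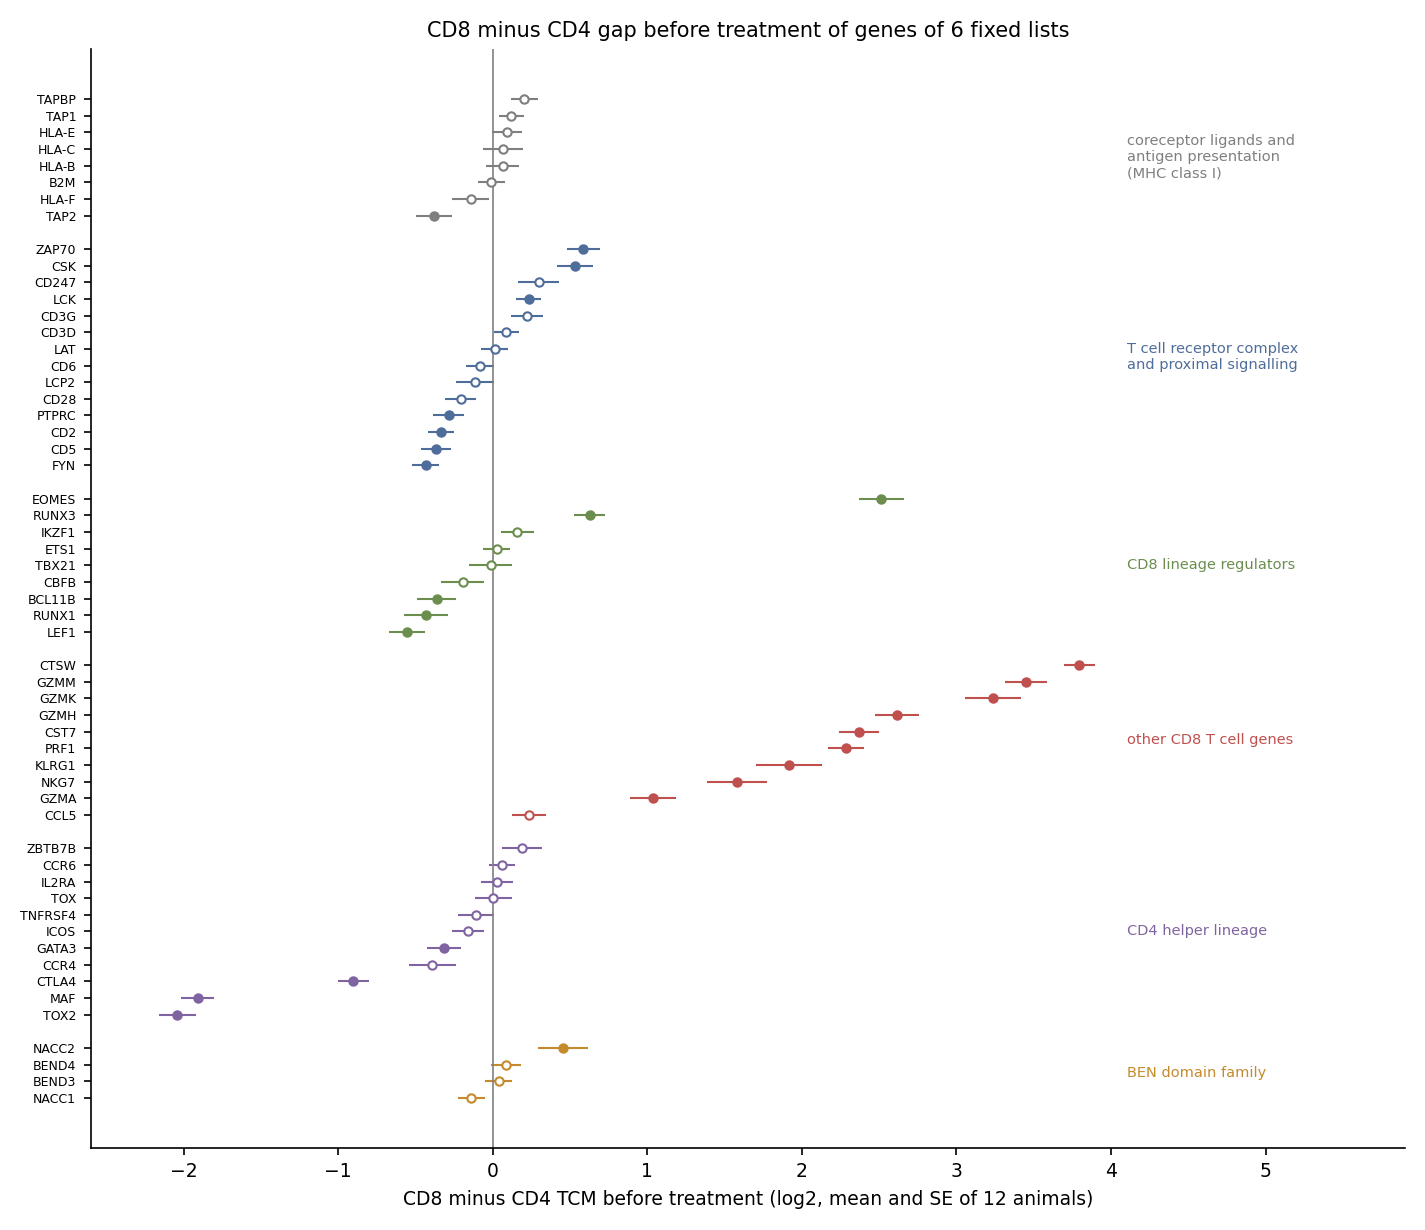
The plot of list genes shows the CD8 minus CD4 difference before treatment (x axis, log2, mean and SE of 12 animals) of each measured gene (y axis), grouped by list and filled where limma's adjusted p was under 0.05. The other CD8 T cell genes reach 3.79 for CTSW, whose CD4 level is only a bound, whereas the genes of MHC class I lie between -0.38 and 0.20.

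In CD8 TCM after anti-IL-15 no gene of the 6 lists was called by limma, but 7 of the 10 other CD8 T cell genes had an unadjusted p under 0.05, beside 8.46% of all 14738 probes, and the list's median change was 0.73, beside -0.01 over all of them. GZMK was at 1.16 ± 0.22 and NKG7, a granule membrane gene, at 0.98 ± 0.19, each higher in 6 of 6 animals (SE, limma adjusted p = 0.0667 and 0.0677). The median over the 7 member probes was 0.16. After IgG1 the list's median was 0.33, with 0 of 10 genes at an unadjusted p under 0.05, beside 7.14% of all probes, and between the antibodies GZMK differed by 1.23 with limma's adjusted p of 0.676.

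The genes whose levels were most like each member over all 48 samples were higher in CD8 TCM before treatment. Their mean gaps ran from 0.77 for ZNF683 to 3.79 for CTSW. The members were chosen on the CD8 against CD4 contrast, and the 48 samples hold both cell types. Genes found in this way are therefore largely those that separate the cell types, and these r are not independent support. For CD8A on ILMN_1768482 the gap over both times was 7.32, beside SDs of 0.22 within CD8 and 0.60 within CD4 TCM. The exact share of the variation that goes with cell type was not measured. For CD8A they were CTSW (r = 0.97), GZMM, PRF1, CD79B and USP11 (r = 0.93). For BEND5 they were CTSW (r = 0.95), PRF1, USP11, PTGES2 and GZMM (r = 0.90). For CD8B they were SMAGP (r = 0.90), ZNF683, CTSW and both CD79B probes (r = 0.87 and 0.86). CD79B encodes a chain of the B cell receptor, and its brighter probe had a gap of 2.06 here. MS4A1, a B cell surface gene, was detected in 19 of 24 CD8 and 16 of 24 CD4 samples.

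Over the 24 CD8 samples alone, with group means subtracted, no gene appeared for more than one member. The closest were FNBP1 to CD8A (r = 0.80), ADRM1 to CD8B (r = 0.84) and TRMT1 to BEND5 (r = 0.81). The next for CD8A were ZFAND3, RNF4, ALKBH5 and TACC1, for CD8B RAN, ZNF451, PGAM1 and EMC3, and for BEND5 CCM2, KCNQ3, LIN7B and ZNF513. These are the highest of 10363 correlations over samples that share arrays and quality, and they are given without a test.

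In the RefSeq annotation of the macaque genome CD8A and CD8B are neighbours on chromosome 13, and BEND5 lies on chromosome 1. Of the genes next to the CD8 pair, KRCC1 and RNF103 were measured and went the other way, at -0.27 ± 0.10 and -0.52 ± 0.14 (SE, limma adjusted p = 0.0414 and 0.00600). SMYD1 and RMND5A, also next to the pair, and the 4 genes around BEND5 had no probe above background.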

How the data were processed

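Total RNA was amplified and hybridised to Illumina human BeadChips, per the labels' protocols. The deposited non-normalized table holds bead intensity per probe and array, with a detection p-value beside each intensity per the file headers. The authors' value table is on the log2 scale without background correction: quantile normalization of the raw intensities matched 100% of the compared entries to 0.03. The arrays of the repeated sample and the probes with readings of 0 were not compared. The submitters' processing notes name limma, with no version. Intensities of 49 arrays were corrected and quantile normalized with limma's neqc (offset 16, background from detection p-values), leaving out 13 probes with readings of 0. Probes detected (p under 0.05) in at least 6 of 24 samples of a cell type were tested with limma 3.58.1 in R 4.3.3, with the animal as a block and Benjamini-Hochberg adjustment at 0.05, and the models were tested on simulated data. Animals are named in the labels, so samples were paired by animal; before and after samples of an animal deviated together with a median r of 0.34, 0.36, 0.34 and 0.18 in CD8 IgG1, CD8 anti-IL-15, CD4 IgG1 and CD4 anti-IL-15. Correlations used 100000 permutations. All probes of the members were named, as were the 5 genes most like each. Up to 4 genes of a list were named by lowest p. Other genes were named for their position, for low detection, as exceptions or in CD4 samples, chosen after their values were seen. Members and lists were chosen with earlier results of these data known. Figures used matplotlib. The array annotation gives 30105 probes 1 symbol, 8 several and 17104 none.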

Additional observations from a re-analysis of the deposited data

Results flagged for a closer look

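In groups of 6 animals, a lone sample was marked where its distance to the nearest other exceeded what Dixon's test allows at the 95% level. Of 102 groups of member values examined, 7 held such a sample, and chance marks about 1 in 20. For CD8B in anti-IL-15 animal 5 before treatment, the level on ILMN_1748601 in CD8 TCM was 4.87, with the next animal at 5.67. The gap was 0.34, with the next at 1.09. These marks rest on the same CD8 value, at which the probe was not detected. In IgG1 animal 5 after treatment the gap of the same probe was 0.57, with the next at 1.32. For CD8A on ILMN_2353732, the gap of anti-IL-15 animal 1 changed by 1.71, with the next animal at 0.44, and the CD8 level of IgG1 animal 5 after treatment was 12.52, with the next at 12.27. For BEND5 on ILMN_1675024, the gap of anti-IL-15 animal 4 after treatment was 2.07, with the next at 1.31, and the CD8 level of IgG1 animal 2 changed by -1.22, with the next at -0.18.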

How the results depend on the processing

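No member probe was called in the 12 tested comparisons under the 28 alternative settings, which gave 324 counts because 3 of them could be run for some comparisons only, and the lowest adjusted p was 0.246 (CD8A on ILMN_2353732 in CD4 TCM before treatment, without anti-IL-15 animal 5). With no replicate block, or with the animal as a random replicate block, 0 members were called, and the CD8A change in CD8 TCM after anti-IL-15 stayed at 0.17. Of 1724 member differences recomputed, 93 changed sign, none of them called. The background correction moved the size of the gap but not its direction. Before treatment the gaps of CD8A, CD8B and BEND5 were 5.84, 0.43 and 1.45 in the deposited value table, 6.43, 0.53 and 1.84 with normexp at offset 50, and 5.83, 0.43 and 1.43 without background correction. After anti-IL-15 the deposited values gave 5.97, 0.62 and 1.45 and no correction gave 5.96, 0.61 and 1.43; normexp gave 6.56, 0.72 and 1.86. After IgG1 the same 3 settings gave CD8A at 6.02, 6.72 and 6.02, CD8B at 0.56, 0.66 and 0.55, and BEND5 at 1.48, 1.84 and 1.47. Other probes in place of the brightest gave, before treatment, after anti-IL-15 and after IgG1, gaps of 3.29, 3.18 and 3.70 for CD8A (ILMN_1760374), -0.0299, -0.00236 and -0.0101 for CD8B (ILMN_1669005) and 1.41, 1.35 and 1.30 for BEND5 (ILMN_1675024). Leaving out each animal moved the gap before treatment from 7.08 to 7.29 for CD8A, 1.00 to 1.11 for CD8B and 2.35 to 2.51 for BEND5, and gaps after treatment from 7.09 to 7.83, 1.20 to 1.54 and 2.19 to 2.55. Probes called in all, 5 in CD8 TCM after anti-IL-15, ran from 0 (no filter, no block, or without animal 3) to 38 with both cell types in 1 fit. Those in CD4 TCM, 3 after anti-IL-15, ran from 0 (no block, or without animal 4) to 23 without animal 6, and those between antibody groups before treatment, 1, from 0 to 13. In CD4 TCM after IgG1, with 0, and for the gap before treatment between antibody groups, with 0, 1 probe was called at most. The MHC class I list had 1 gene higher in CD8 TCM in place of 0 under the other background settings and without anti-IL-15 animal 1, and the CD8 regulators had 1 in place of 3 higher in CD4 TCM without anti-IL-15 animal 5 or IgG1 animal 4. The NACC2 call was lost without background correction and without any of 7 single animals. The 0 members called come with dim CD8B probes, whose signal near background limits what could be seen.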

Other observations

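The level of a probe before and after treatment in the same animal, a measure added after seeing the data, was correlated for the 10 probe and cell type pairs above background. The highest Pearson r were 0.66 for CD8A on ILMN_2353732 in CD4 TCM, 0.64 for CD8B on ILMN_1748601 in CD8 TCM and 0.64 for BEND5 on ILMN_3237448 in CD4 TCM, over 12 animals each. Their two-sided permutation p were 0.0211, 0.0254 and 0.0280, and each had an adjusted p of 0.0934. Spearman's rho was 0.68, 0.60 and 0.67, and r without the 2 animals farthest from the median was 0.54, 0.18 and 0.80. For CD8A on ILMN_1768482 in CD8 TCM r was -0.08 (permutation p = 0.798).

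CD4 TCM of anti-IL-15 animal 3, among the libraries least like the others, held the highest CD4 values of EOMES (6.74) and CTSW (6.47) after treatment and the highest of CCL5 (7.63) before it. Its BEND5 level before treatment, 6.56 on ILMN_3237448, ranked 2nd of 24, while CD8A on ILMN_1768482 ranked 12th.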
